A study of Mus musculus with 6 samples.

Results

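The genes described here encode the proteins of the cytosolic ribosome. Members were chosen by symbol, as every listed gene named Rpl, Rps, Rplp0 to Rplp2 or Rpsa with a plain number or a paralog ending, which leaves out the Rps6k kinases and symbols that mark pseudogenes. The rule gave 84 of the 17067 listed genes, 52 of the large and 32 of the small subunit. It used no measured value. The cells were colon macrophages sorted as CD45+CD11b+F4/80+ from C57BL/6 mice aged 10 weeks, all given DSS (dextran sulfate sodium), which injures the lining of the colon and causes colitis. The groups were wild type (WT) and Gsdmd-/-, with 3 samples each. No Cre driver or cell type is named for the deletion, and no group without DSS is used here, so every value comes from inflamed colon. Gsdmd encodes gasdermin D, the pore-forming protein of pyroptotic cell death, and the comparison is of macrophages from WT mice with those from mice labelled Gsdmd-/-. Nothing in the labels ties each sample to its own mouse, so the p-values reflect only how far these samples spread, and that spread may be technical.

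A ribosome is built from ribosomal RNA and 1 copy of most ribosomal proteins per subunit, and the large subunit joins amino acids while the small subunit reads the mRNA. Because the proteins are needed in matched amounts, their mRNAs are among the most abundant of a cell and are usually held at similar levels, and many start with a run of pyrimidines, the 5′ terminal oligopyrimidine tract, through which mTORC1 and the RNA-binding protein Larp1 control their translation. In macrophages, ribosomal proteins also have known roles outside protein synthesis, among them the part of Rpl13a in a complex that silences inflammatory mRNAs.

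The pyrimidine run is the sequence feature for which this gene family is known, so it was looked for around the annotated transcription start of each member in the RefSeq promoter table (GRCm38.p6). The table held 64 members and 13375 of the listed genes. A run of at least 6 C or T on the gene's strand, reaching within 5 bases of the start base, was found in 33 members, which is 51.6% of them and compares with 24.9% of the listed genes. The start base itself was C in 22 members (34.4%) and in 17.5% of the listed genes. The windows below hold 15 bases before the start base and 15 from it on, 5′ to 3′ on the gene's strand, with the longest run near the start in capitals. The first 6 have such a run and the last 3 do not. Rpl28, Rpl38, Rplp2, Rpl41 and Rps15 are among the members with the largest changes described further on, Rpl15 and Rpl7l1 are among those with the smallest, and Rps27 and Rps6 have near-identical listed copies.

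Rpl28 (chr7:4792950-4792979, plus strand): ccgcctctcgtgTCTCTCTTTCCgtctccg
Rpl38 (chr11:114668565-114668594, plus strand): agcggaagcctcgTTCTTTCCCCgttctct
Rplp2 (chr7:141447636-141447665, plus strand): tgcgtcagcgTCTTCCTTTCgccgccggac
Rpl15 (chr14:18270972-18271001, minus strand): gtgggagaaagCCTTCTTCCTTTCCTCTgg
Rps27 (chr3:90213634-90213663, minus strand): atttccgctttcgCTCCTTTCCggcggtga
Rps6 (chr4:86857353-86857382, minus strand): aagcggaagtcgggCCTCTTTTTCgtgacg
Rpl41 (chr10:128549154-128549183, minus strand): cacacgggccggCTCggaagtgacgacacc
Rps15 (chr10:80292416-80292445, plus strand): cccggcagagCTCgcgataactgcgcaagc
Rpl7l1 (chr17:46782642-46782671, minus strand): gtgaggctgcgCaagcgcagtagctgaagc

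Rpl15 has the longest run shown, 17 bases, and Rpl28 follows with 11. In the 300-base promoters, which run from 250 bases before the start to 50 from it on, CCGGAAG on either strand was found in 26 of 64 members (40.6% against 16.3% of listed genes). AAGATGG was found in 10 (15.6% against 7.58%) and CTTTCC, which can overlap a pyrimidine run, in 33 (51.6% against 30.2%). GGGCGG was as frequent among the members, 39 of 64 (60.9%), as among the listed genes (60.3%). These matches describe letters in the annotated window. The tested members with a pyrimidine run (33) had a median log2 change of 0.66 between the genotypes, and those of the table without one (29) had a median of 0.61. The change was thus not limited to members with a run at the annotated start. Which starts these cells use was not tested.

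The deposited values were read as FPKM, fragments scaled by transcript length and by library size, and changes are Gsdmd-/- minus WT on log2(FPKM + 1), tested with limma across all genes and adjusted by Benjamini-Hochberg. A gene is said to have risen or fallen where the adjusted p is under 0.05. The library check came first. Gsdmd stood at 97.65, 99.35 and 97.35 FPKM in WT samples 1 to 3 and at 28.47, 28.99 and 29.69 FPKM in the Gsdmd-/- samples. It fell by 1.72 (adjusted p = 1.12e-11 in limma) and was still listed well above 0 in the Gsdmd-/- samples. Steps in low values gave a rough depth of 19.2 to 19.8 M fragments per library, nearly equal between the groups, while summed FPKM was between 476271 and 485411 in WT samples and between 551502 and 565388 in Gsdmd-/- samples. All 11 macrophage markers were tested. Their sum lay between 9964 and 10660 FPKM in WT samples and between 11690 and 11910 FPKM in Gsdmd-/- samples, and the genes of the sorted proteins fell, with log2 changes of -0.94 for Itgam (CD11b), -0.67 for Ptprc (CD45) and -0.43 for Adgre1 (F4/80). Of the 11 markers 5 rose and 5 fell, and with the length and GC trend described below removed 1 rose and 8 fell. Those that rose as deposited were C1qb (0.53), C1qa (0.45), Fcgr1 (0.35), Cd68 (0.33) and Lyz2 (0.13). With the trend removed only Fcgr1 (0.28) rose. C1qa (-0.15) and Lyz2 (-0.10) then fell, and C1qb (-0.02) and Cd68 (-0.07) did not pass the threshold. Among all tested genes 40.6% rose and 36.9% fell as deposited, and 30.4% rose and 30.1% fell with the trend removed.

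Nearly all ribosomal protein genes were higher in Gsdmd-/- macrophages, by a similar factor. Of the 52 large subunit genes, 50 were tested and all 50 rose. These include Rpl39l and Rpl32l, which passed the filter only through their Gsdmd-/- samples, and with a mean of at least 5 FPKM as the filter, which leaves both out, 48 rose. Of the 32 small subunit genes, all were tested, 31 rose and 0 fell, and the exception was Rps27. With limma's p unadjusted, or with its trend and robust settings off, the number that fell was also 0, and the values of Rps27 are given with its copy further on. Over all 10005 tested genes 40.6% rose and 36.9% fell. Among the 647 other tested genes with transcripts of up to 1000 bases, a length that 57 tested members share, 88.6% rose. The median log2 change was 0.63 for the large and 0.66 for the small subunit, beside 0.03 over all genes tested. The 2 untested members, Rpl10l and Rpl3l, are paralogs known mainly from testis and from muscle, and their WT means were 0.0333 and 0.217 FPKM, with Gsdmd-/- means of 0 and 0.297 FPKM.

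The groups of samples did not overlap for 81 of the 82 tested members, 50 of the large and 31 of the small subunit. Over all genes tested, 41.2% had every Gsdmd-/- sample above every WT sample and 38.3% had every one below. The spread of the response was narrow. Among the 79 members with a WT mean of at least 10 FPKM, Rps27 aside, the log2 change ran from 0.23 to 0.92 with quartiles at 0.57 and 0.72, whereas the quartiles over all genes tested were -0.32 and 0.34. In fold terms, 74 of the 79 stood between 1.4 and 1.9 times their WT mean, and the median was 1.56 times. The median of their means was 362 FPKM in WT samples and 573 FPKM in Gsdmd-/- samples.

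**Figure D1:**
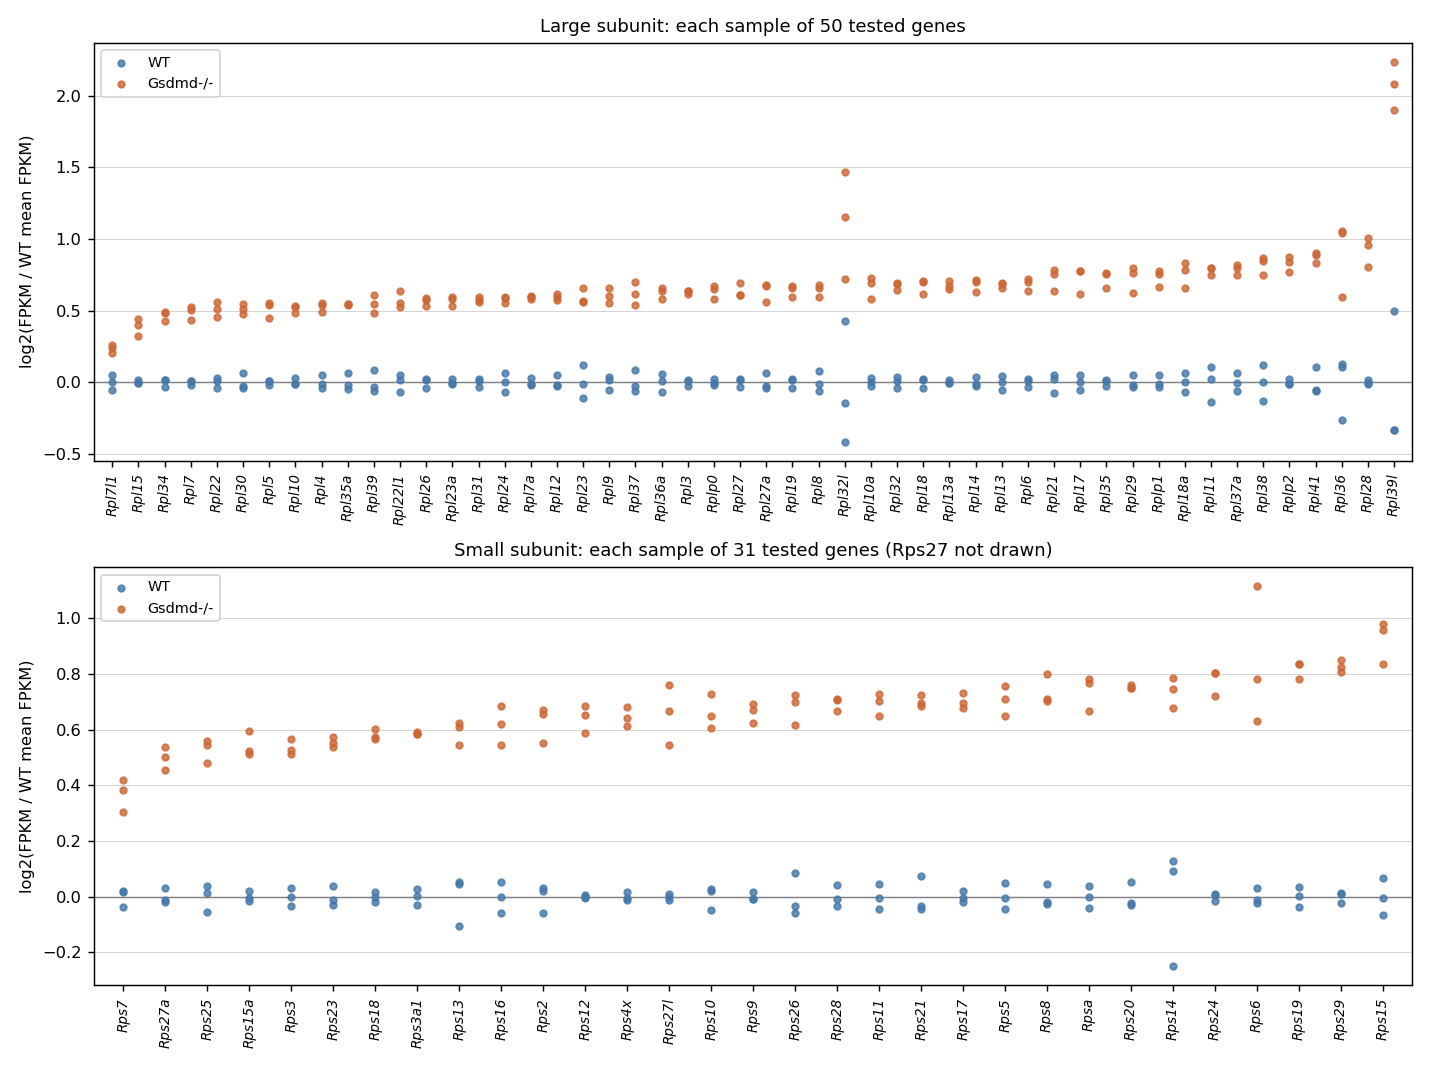
Each point is 1 sample of 1 tested gene, drawn as log2 of its FPKM over the WT mean of that gene (y axis), with genes ordered by their change along the x axis, large subunit above and small subunit below, and Rps27 left out. All Gsdmd-/- points lie above all WT points of the same gene, and most lie between about 0.5 and 0.8, with Rpl7l1 and Rps7 lowest and Rpl39l highest.

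The ribosomal protein genes also took a larger share of the summed FPKM. The share was 6.26%, 6.34% and 6.25% in WT samples 1 to 3 and 8.58%, 8.60% and 8.36% in the Gsdmd-/- samples, that is 6.28 ± 0.0533 and 8.51 ± 0.132 (SD, n = 3 each), so the groups lay far apart relative to their spread. The large subunit held 3.75 ± 0.0312% in WT and 5.08 ± 0.0820% in Gsdmd-/- samples. The small subunit held 2.53 ± 0.0222% and 3.43 ± 0.0499%. The ratio of the large to the small subunit sum stayed between 1.48 and 1.49 in all 6 samples, so both subunits as listed moved in step. The member sums leave out near-identical listed copies, described further on, which held most of the FPKM of Rps6, Rps27, Rpl21 and Rpl37 with their copies. The ratio with copies added was not tested. Summed over members, FPKM was 1.58 times as high in Gsdmd-/- as in WT samples, against 1.17 times for all genes, and members made up 21.9% of the rise in summed FPKM. In bulk RNA of sorted cells, fewer cells of a type and less RNA per cell cannot be told apart.

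The stalk proteins recruit the elongation factors to the ribosome. Rplp0, the base of the stalk and a common reference gene in quantitative PCR, stood at 573, 583 and 568 FPKM in WT and at 903, 916 and 858 FPKM in Gsdmd-/- samples, a rise of 0.63 (SE 0.0283, adjusted p = 3.55e-09 in limma). Rplp1 stood at 878, 930 and 891 FPKM in WT and at 1519, 1541 and 1430 FPKM in Gsdmd-/- samples, a rise of 0.73. Rplp2 stood at 402, 403 and 412 FPKM in WT and at 743, 725 and 692 FPKM in Gsdmd-/- samples, a rise of 0.83. For all 3 stalk genes the lowest Gsdmd-/- sample was well above the highest WT sample, and Gsdmd-/- sample 3 was the lowest of its group each time. Rpl13a, another frequent reference gene, had 324, 329 and 325 FPKM in WT samples and 532, 520 and 512 FPKM in Gsdmd-/- samples (rise of 0.68, adjusted p = 1.22e-09 in limma).

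Rpl5 and Rpl11 bind the 5S ribosomal RNA and, outside the ribosome, inhibit Mdm2 and so stabilise p53. Rpl5 stood at 260, 264 and 265 FPKM in WT and at 386, 382 and 360 FPKM in Gsdmd-/- samples (rise of 0.51, adjusted p = 2.52e-08 in limma). Rpl11 stood at 401, 475 and 447 FPKM in WT and at 765, 766 and 742 FPKM in Gsdmd-/- samples (rise of 0.78, adjusted p = 3.95e-07 in limma). Both had separate groups, and Rpl11 varied more among WT samples than Rpl5 did. Rpl3, which lies near the peptidyl transferase centre, went from 253 ± 3.76 to 391 ± 3.29 FPKM (SD, n = 3 each). Rpl10, which joins the large subunit late in its assembly and had the highest WT mean of all members, went from 955 ± 15.7 to 1362 ± 26.9 FPKM.

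The largest changes of the large subunit were in Rpl28 (0.92), Rpl36 (0.90), Rpl41 (0.88) and Rplp2, apart from Rpl39l, a gene at a very low level described with its main form. Rpl28, a protein that bacterial ribosomes lack, stood at 451, 458 and 448 FPKM in WT and at 878, 909 and 791 FPKM in Gsdmd-/- samples. Rpl41, which encodes a very short and basic peptide, stood at 920, 1026 and 914 FPKM in WT and at 1766, 1782 and 1698 FPKM in Gsdmd-/- samples. Rpl36 was less even, with 120, 155 and 158 FPKM in WT samples against 300, 297 and 218 FPKM in Gsdmd-/- samples (SE 0.191, adjusted p = 0.0109 in limma). Its groups did not overlap, but WT sample 1 and Gsdmd-/- sample 3 stood apart from the rest of their group. Rpl38, known for its part in the translation of Hox mRNAs, rose by 0.82, from 319 ± 27.6 to 564 ± 24.99 FPKM.

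The smallest changes of the large subunit were in Rpl7l1 (0.23), Rpl15 (0.39), Rpl34 (0.47), Rpl7 (0.49) and Rpl22 (0.50). Rpl15 stood at 468, 461 and 461 FPKM in WT and at 612, 629 and 580 FPKM in Gsdmd-/- samples. Rpl34 stood at 276, 276 and 267 FPKM in WT and at 385, 382 and 368 FPKM in Gsdmd-/- samples. These genes too had every Gsdmd-/- sample above every WT sample.

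In the small subunit the largest changes were in Rps15 (0.92), Rps29 (0.83), Rps19 (0.81), Rps6 (0.80) and Rps24 (0.78). Rps15 stood at 464, 488 and 446 FPKM in WT and at 918, 905 and 832 FPKM in Gsdmd-/- samples (adjusted p = 7.10e-09 in limma). Rps19, the gene most often mutated in Diamond-Blackfan anaemia, stood at 214, 208 and 219 FPKM in WT and at 382, 382 and 368 FPKM in Gsdmd-/- samples. Rps24, also mutated in that anaemia, went from 748 ± 6.74 to 1282 ± 42.4 FPKM, and the zinc-binding Rps29 from 378 ± 5.37 to 671 ± 10.3 FPKM (SD, n = 3 each). Each of these 4 genes lay far above its WT spread in all Gsdmd-/- samples.

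The smallest changes of the small subunit, Rps27 aside, were in Rps7 (0.37), Rps27a (0.50), Rps25 (0.53) and Rps15a (0.53). Rps7 stood at 366, 367 and 353 FPKM in WT and at 473, 484 and 447 FPKM in Gsdmd-/- samples (adjusted p = 5.89e-07 in limma). Rps27a is made as a fusion with ubiquitin and is a source of that protein, and it went from 357 ± 6.52 to 505 ± 14.3 FPKM. Rps25 is known for its part in translation from internal ribosome entry sites, and it went from 300 ± 10.0 to 433 ± 12.5 FPKM. Rps3, which sits at the mRNA entry channel and also binds DNA with NF-κB, stood at 170, 178 and 174 FPKM in WT and at 248, 258 and 251 FPKM in Gsdmd-/- samples (rise of 0.53). Rpsa, also named as a laminin receptor, stood at 380, 401 and 391 FPKM in WT and at 671, 665 and 619 FPKM in Gsdmd-/- samples (rise of 0.74).

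As deposited, differences among members were small but exceeded the replicate error for some. With the log2 values of each sample taken relative to its median ribosomal protein gene, an alternative chosen after seeing the data, 16 of 82 members were higher and 24 lower in Gsdmd-/- samples than the median member's change. On this scale 2.26% of all genes rose and 88% fell. The higher ones were 10 large and 6 small subunit genes, among them Rps15 (0.26, adjusted p = 1.30e-08 in limma), Rpl28 (0.26), Rpl41 (0.22) and the low-level Rpl39l, which had to differ to pass the filter. The lower ones were 16 large and 8 small subunit genes, led by Rpl7l1 (-0.43, adjusted p = 2.46e-08 in limma), Rps7 (-0.29), Rpl15 (-0.27) and Rpl34 (-0.19). This order was not kept in full with the length and GC trend described below removed. Rpl15 (0.42) and Rpl7l1 (0.24) then lay above the large subunit median of 0.21, and Rpl41 (0.14) below it. Rps15 (0.16) lay at the small subunit median of 0.16. Rpl28 (0.50) and Rpl39l (0.76) stayed high, and Rps7 (0.01) and Rpl34 (-0.13) stayed low. Across the 79 members, the change as deposited had a Spearman rho of 0.502 with GC content, -0.318 with transcript length and 0.157 with the WT mean level. With the trend fitted without the members and removed, rho turned to -0.614 with GC content and 0.644 with length. These are descriptions across genes of the same 6 libraries.

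Transcript length is a measure in which members stand apart from other genes. Their median length was 791 bases, beside 2789 bases for all tested genes with a length, and 79 of 81 tested members with a length were shorter than that median. Across all 9852 tested genes with length and GC, the change fell with length (Spearman rho -0.647) and rose with GC content (0.495). Members of up to 1000 bases (57) had a median change of 0.66, and the 647 other tested genes of that length had a median of 0.54, of which 88.6% rose. Members over 1000 bases (24) had a median change of 0.61, while the 9124 other tested genes over 1000 bases had a median of -0.01. The short members thus lay near other short genes, and the longer members lay above the other genes over 1000 bases. This second comparison was not matched for length within the class, and the change fell with length.

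**Figure D2:**
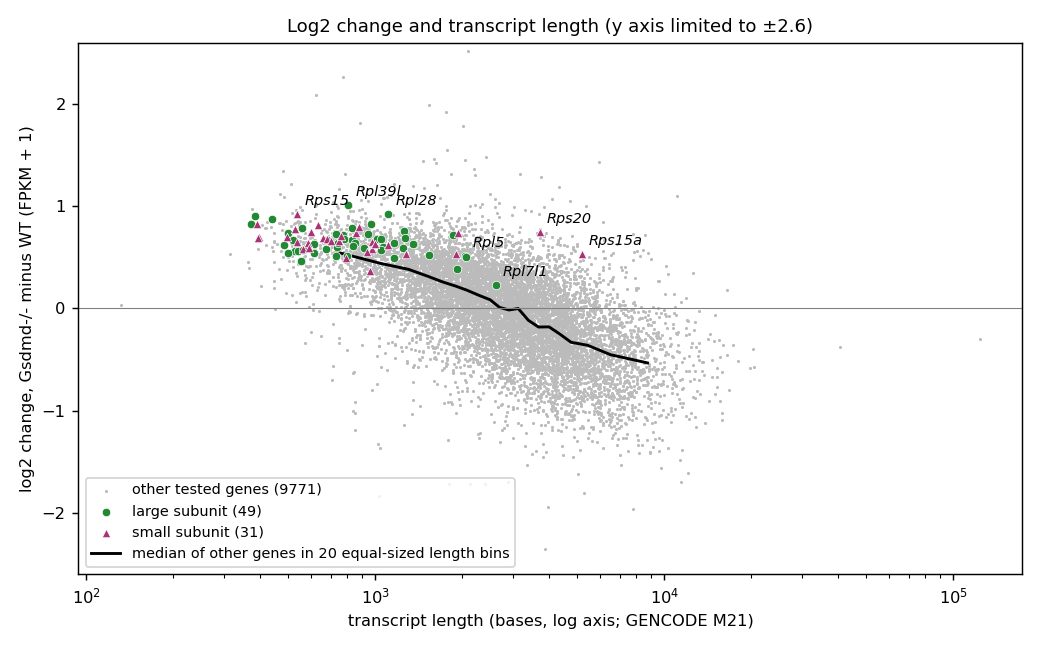
Log2 change between Gsdmd-/- and WT samples (y axis, limited to 2.6 either way) against transcript length in bases (x axis, log scale) for large subunit genes (circles), small subunit genes (triangles) and other tested genes (grey dots), with the median of the other genes in 20 length bins as a line. Members fill the short end of the plot, most a little above the line, and the longer members such as Rpl5, Rps20 and Rps15a lie farther above it.

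Once the trend on length and GC was removed from each sample, 38 large subunit genes rose, 1 fell and 10 did neither, out of 49. In the small subunit 23 rose, 0 fell and 9 did neither, out of 32. Over all 9852 genes in that fit 30.4% rose and 30.1% fell. With the trend fitted without the members, an alternative chosen after seeing the data, the 4 counts of risen and fallen members were the same, and 30.7% of all genes rose and 29.9% fell. The medians were 0.21 for the large and 0.16 for the small subunit, so the remaining difference was much smaller than as deposited, and the trend at the length and GC of a member had a median of 0.45. All 24 members over 1000 bases rose in that fit, with a median of 0.35, and 37 of 57 of the shorter ones did, with a median of 0.09. The change between the genotypes thus varied with length and GC over all genes. The part of length and GC in the remaining difference was not tested.

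Among single members, Rpl28 (0.50), Rpl5 (0.59) and Rpsa (0.58) kept large positive values with the trend removed. Rps20 (1.13) and Rps15a (0.96) had the largest, and these have annotated transcripts of 3706 and 5179 bases, the longest among the members. As deposited they rose by 0.74 and 0.53. The trend fitted without the members was -0.39 and -0.43 at their length and GC, so removing it raised their values. Whether these long transcripts are the ones expressed was not tested. Rps20 falls outside the rule for named genes and was singled out after its values were seen. Rpl34 fell by 0.13 (adjusted p = 4.86e-04 in limma), the reverse of its change as deposited. Rps7 (0.01), Rpl36 (0.07), Rplp1 (0.00) and Rpl39 (0.09) did not pass the threshold with the trend removed, though all 4 rose as deposited.

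**Figure D3:**
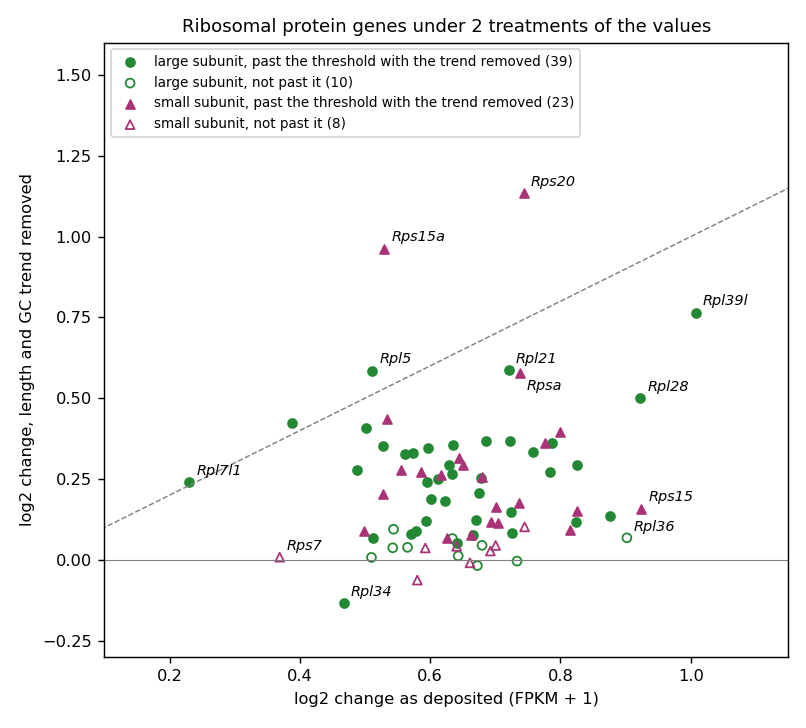
Each tested ribosomal protein gene by its log2 change as deposited (x axis) and after removal of the length and GC trend (y axis), with filled symbols for an adjusted p under 0.05 in the second fit and a dashed line where both are equal; Rps27 lies outside the axes. Most members lie between 0 and 0.4 on the y axis, Rps15a and Rps20 lie well above the line, and Rpl34 is the filled symbol below 0.

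Another scaling moved the background more than the calls. With each sample rescaled to the same sum (TPM), the median over all genes tested shifted from 0.03 to -0.17, and 25% of genes rose and 51% fell, while 49 of 50 large and 31 of 32 small subunit genes still rose. Their medians were then 0.41 and 0.44. Rpl7l1 (0.01) was the large subunit gene that no longer passed. With quantile normalization 41% of all genes rose and 36.2% fell, and 48 large and 31 small subunit genes rose.

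Several members have near-identical copies elsewhere in the genome, between which reads could be divided. How reads were assigned was not tested. Of 83 members with a coding sequence in GENCODE M21, 70 had at least 1 transcript of another gene matching at least 90% of that sequence at 97% identity or more. The median number was 3, 24 members had 5 or more, and Rpl21 had the most with 32. Listed copies were found for 9 members. Values of single members with such copies are uncertain to that extent.

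Rps27, a small subunit protein with a zinc finger, had the most uneven values. It stood at 118, 115 and 182 FPKM in WT and at 243, 76.1 and 0.07 FPKM in Gsdmd-/- samples, with overlapping groups and a log2 value of -2.32 (SE 2.35, adjusted p = 0.417 in limma). Without Gsdmd-/- sample 3 the log2 value was 0.01. Rps27rt is a retrogene on chromosome 9 (positions 114982366 to 114982739) whose coding sequence has the same 252 of 252 bases. It stood at 341, 331 and 284 FPKM in WT and at 501, 670 and 729 FPKM in Gsdmd-/- samples, so it was highest where Rps27 was nearly absent. The sum of the pair was 459, 446 and 465 FPKM in WT samples and 745, 746 and 730 FPKM in Gsdmd-/- samples, with close replicates in each group. Summed, an alternative chosen after seeing the data, the pair rose by 0.70 (SE 0.0252, adjusted p = 9.72e-10 in limma), like the other members.

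Rps6, the small subunit protein that S6 kinase phosphorylates downstream of mTORC1, was listed at only 13.2, 13.6 and 13.2 FPKM in WT and at 23.0, 20.7 and 28.9 FPKM in Gsdmd-/- samples. A copy listed as LOC105244208, which RefSeq annotates as the transcribed pseudogene Rps6-ps4 on chromosome 2 (positions 75190995 to 75191854), was listed at 540, 550 and 540 FPKM in WT and at 931, 919 and 864 FPKM in Gsdmd-/- samples. The copy held between 96.8% and 97.8% of the pair in all 6 samples. The sum rose by 0.74 (adjusted p = 1.21e-09 in limma). For Rpl21, Gm10045 held 71.2% to 73.9% of the pair, and for Rpl37, Rpl37rt held 69.5% to 73.3%. Their sums rose by 0.69 and 0.64. Rpl31 kept most of its pair, with 19.9% to 26.0% under Rpl31-ps12 in WT and 27.2% to 33.1% in Gsdmd-/- samples, and the pair rose by 0.73.

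**Figure D4:**
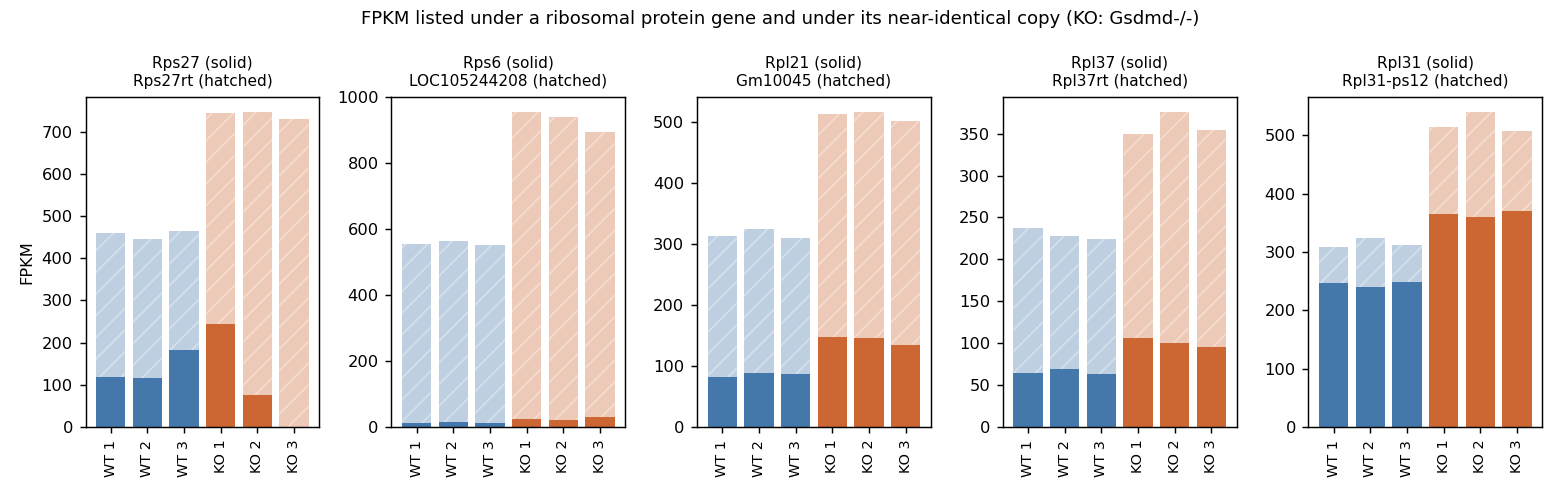
FPKM (y axis) of 5 members (solid bars) and of their near-identical listed copies (hatched bars, stacked on top) in each of the 3 WT and 3 Gsdmd-/- (KO) samples. The solid part of Rps27 varies from 0.07 to 243 FPKM while the full bars are even within a group, and nearly the whole bar of Rps6 is listed under its copy.

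Some paralogs differ clearly from their main form in coding sequence. Whether reads were kept apart between them was not tested. The coding sequences of Rpl39 and Rpl39l, from GENCODE M21, are shown because their 23 differing bases of 153, in capitals, are spread along the gene, and the first 120 bases of Rps27 and Rps27l because they differ at 28 bases, in contrast to the identical Rps27rt.

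Rpl39: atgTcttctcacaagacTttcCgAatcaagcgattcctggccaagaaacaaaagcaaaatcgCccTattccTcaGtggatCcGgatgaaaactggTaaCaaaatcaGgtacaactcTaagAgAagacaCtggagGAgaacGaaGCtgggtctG
Rpl39l: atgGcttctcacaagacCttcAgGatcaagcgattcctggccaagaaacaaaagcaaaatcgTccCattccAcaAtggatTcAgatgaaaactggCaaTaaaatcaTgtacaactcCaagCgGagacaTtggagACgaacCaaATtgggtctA
Rps27: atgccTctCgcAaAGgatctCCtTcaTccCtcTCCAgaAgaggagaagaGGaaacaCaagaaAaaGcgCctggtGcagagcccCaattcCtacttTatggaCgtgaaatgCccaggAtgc
Rps27l: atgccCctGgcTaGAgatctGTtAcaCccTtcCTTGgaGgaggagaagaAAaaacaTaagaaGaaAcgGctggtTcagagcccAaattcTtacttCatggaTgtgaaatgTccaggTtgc

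Rpl39l, a paralog known from testis, was at a very low level, 0.36, 0.64 and 0.36 FPKM in WT samples against 1.92, 1.69 and 2.14 FPKM in Gsdmd-/- samples (log2 value 1.01). It passed the filter only through the Gsdmd-/- samples, so its difference is a description. Rpl39 itself stood at 235, 216 and 212 FPKM in WT and at 309, 323 and 337 FPKM in Gsdmd-/- samples (rise of 0.54). Rps27l, a paralog known as a p53 target, stood at 68.4, 69.0 and 69.5 FPKM in WT and at 101, 110 and 117 FPKM in Gsdmd-/- samples (rise of 0.65, adjusted p = 1.36e-07 in limma). Rpl39 and Rpl39l were both higher in all Gsdmd-/- samples, while Rps27 on its own did not pass the test. Rps4x, the X-linked main form of a further pair, went from 537 ± 5.69 to 841 ± 19.9 FPKM (SD, n = 3 each).

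For 3 pairs both genes were above 1 FPKM in all samples, and the log2 ratio of paralog to main form was compared by a two-sided exact permutation test, which cannot go below p = 0.1 with 3 samples a side. Rpl7l1, which is 54% identical to Rpl7 in its coding sequence, stood at 33.0, 31.7 and 34.0 FPKM in WT and at 39.4, 38.8 and 38.0 FPKM in Gsdmd-/- samples. It made up 8.34% to 8.92% of the pair with Rpl7 in WT and 7.25% to 7.51% in Gsdmd-/- samples, a ratio lower by 0.25 (log2 difference -0.25, exact p = 0.1, adjusted 0.15 over the 3 pairs). Rpl36al, which the symbol rule leaves out, made up 35.4% to 36.0% of the pair with Rpl36a in WT and 37.8% to 39.9% in Gsdmd-/- samples (log2 difference 0.21, exact p = 0.1, adjusted 0.15). The groups did not overlap in either pair, but the design cannot reach the threshold. Both ratios are as deposited. After trend removal the log2 change was 0.24 for Rpl7l1 and 0.28 for Rpl7, beside 0.23 and 0.49 as deposited. Rpl7l1 and Rpl7 thus lay close together in that fit. Rpl36al and Rpl36a were then at 0.30 and 0.18, beside 0.83 and 0.62 as deposited. The paralog ratios themselves were not tested after trend removal. Rpl22l1 and Rpl22, the RNA-binding pair known from T cell development, kept a share of 41.3% to 42.0% in WT and 41.0% to 43.8% in Gsdmd-/- samples, with overlapping groups (log2 difference 0.06, exact p = 0.4, adjusted 0.4). Rpl22l1 rose from 38.2 ± 1.55 to 56.8 ± 2.37 FPKM and Rpl22 from 53.5 ± 1.42 to 76.1 ± 2.61 FPKM. Rpl36a rose from 228 ± 9.59 to 351 ± 9.81 FPKM.

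Ribosomal proteins outside the symbol rule did the same. All 4 of them rose, with a median of 0.79, and without the trend 3 rose and 0 fell (median 0.20). Fau, a fusion that yields a small subunit protein, stood at 419, 450 and 419 FPKM in WT and at 741, 742 and 693 FPKM in Gsdmd-/- samples (rise of 0.76, adjusted p = 6.49e-09 in limma), and it is the gene of the 4 that lost its call without the trend (0.04, adjusted p = 0.0834). Rack1, a scaffold on the small subunit, went from 350 ± 7.61 to 509 ± 15.8 FPKM. Both groups were apart for each of these genes.

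The other factors of translation were read from lists, beside all tested genes, of which 40.6% rose and 36.9% fell as deposited and 30.4% rose and 30.1% fell with the length and GC trend taken out. Of 12 elongation and termination factors 6 rose and 4 fell (median 0.14), and without the trend 5 rose and 5 fell (median -0.01). Eef1g, a subunit of the exchange factor of Eef1a1, rose by 0.49 from 227 ± 1.47 to 320 ± 5.88 FPKM (0.27 with the trend removed). Eef1d, another subunit, rose by 0.64 (0.37 with the trend removed). Abce1, which splits ribosomes after termination, was lower in Gsdmd-/- (14.5 ± 0.474 FPKM) than in WT samples (26.4 ± 0.776 FPKM, log2 change -0.82, adjusted p = 1.19e-08 in limma). With the trend removed Abce1 was at -0.39. Of 38 initiation factors 25 rose and 13 fell (median 0.23), and without the trend 18 rose and 7 fell (median 0.10). Eif3d and Eif3i, subunits of the factor that recruits the small subunit, rose by 0.69 and 0.70 (0.39 and 0.27 with the trend removed). Eif4g2, an initiation scaffold, fell by 0.98 (log2 value -0.45 with the trend removed).

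Of 19 other mRNAs known to start with a pyrimidine tract, 14 rose and 4 fell (median 0.27, with 40.6% and 36.9% over all genes), and without the trend 10 rose and 6 fell (median 0.13, with 30.4% and 30.1% over all genes). Several are also in the lists above, among them the ribosomal proteins Fau and Rack1. Pabpc1, the cytoplasmic poly(A)-binding protein, stood at 434, 433 and 435 FPKM in WT and at 310, 306 and 301 FPKM in Gsdmd-/- samples, a fall by 0.50 (adjusted p = 5.55e-09 in limma). With the trend removed Pabpc1 was at -0.42. All its Gsdmd-/- samples were below all WT samples, the reverse of the ribosomal protein genes.

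Ribosome biogenesis factors build the subunits in the nucleolus and nucleus. Over all genes 40.6% rose and 36.9% fell as deposited, and 30.4% and 30.1% did with the trend removed. Of 51 tested factors 30 rose and 10 fell as deposited (median 0.20), and 32 rose and 4 fell with the trend removed (median 0.21). Nop56, a core protein of box C/D ribonucleoproteins, stood at 12.25, 11.28 and 11.97 FPKM in WT and at 20.2, 21.2 and 20.1 FPKM in Gsdmd-/- samples (rise of 0.74, and 0.58 with the trend removed). Utp3 and Noc4l rose by 0.58 and 0.60. Fbl, the methyltransferase of the same particles, rose by 0.56 and had 0.05 with the trend removed, which did not pass (adjusted p = 0.133 in limma). Of 13 genes of RNA polymerase I, which transcribes ribosomal RNA, 8 rose and 3 fell (median 0.21), and 7 rose and 1 fell with the trend removed (median 0.19). Polr1c, a subunit shared with RNA polymerase III, rose by 0.68.

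Chaperones and importins bring new ribosomal proteins to the site of assembly. Of 11 such genes 5 rose and 4 fell (median -0.05), shares near the 40.6% and 36.9% over all genes. Without the trend 1 rose and 2 fell (median -0.01), against 30.4% and 30.1% over all genes. Ipo7, an import receptor, fell from 17.8 FPKM to 8.09 FPKM in the group means (log2 change -1.05, and -0.51 with the trend removed). Of 17 tested genes of mTORC1 and the control of ribosomal protein translation 3 rose and 11 fell (median -0.10), and without the trend 6 rose and 5 fell (median -0.02). Eif4ebp1, the translation repressor that mTORC1 inactivates, stood at 50.6, 56.3 and 52.8 FPKM in WT and at 93.1, 98.4 and 85.7 FPKM in Gsdmd-/- samples (rise of 0.78, and 0.71 with the trend removed). Mtor, the kinase itself, stood at 6.06, 6.21 and 6.84 FPKM in WT and at 3.38, 3.48 and 3.90 FPKM in Gsdmd-/- samples, a fall by 0.68. With the trend removed Mtor was at -0.36. The groups were separate for both genes.

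Markers of some other cell types summed higher and those of others lower in Gsdmd-/- samples. The part of these markers in the result was not tested. The summed level of 8 fibroblast markers was 30.2 to 31.8 FPKM in WT samples and 82.2 to 84.1 FPKM in Gsdmd-/- samples, and 6 of 6 tested rose. The 8 neutrophil markers summed to 36.4 to 40.3 and 47.0 to 50.9 FPKM with 3 of 3 tested rising. Retnlg, Camp and Ly6g were at 0 in some samples, and Csf3r held most of the sum (means of 29.6 and 37.5 FPKM). The 6 dendritic cell markers summed to 6.81 to 7.80 and 8.86 to 9.77 FPKM with 1 of 2 tested rising, and 2 with the trend removed. The 5 listed T cell markers summed to 4.67 to 5.19 and 7.16 to 8.26 FPKM, with 1 of 1 tested rising and Cd3d, Cd3e and Cd2 at 0 in some samples. The 7 listed B cell and plasma cell markers stayed under 1 FPKM in sum in all 6 samples, and Cd79a, Ms4a1, Pax5 and Mzb1 were at 0 in some. The 6 endothelial markers summed to 62.6 to 66.8 FPKM in WT and to 33.7 to 39.2 FPKM in Gsdmd-/- samples. Kdr held most of that sum, with means of 56.4 FPKM in WT and 26.2 FPKM in Gsdmd-/- samples. Of 3 tested, Kdr fell (log2 change -1.08), while Vwf (-0.03) and Cdh5 (0.13) did not pass the test. With the length and GC trend removed, Kdr still fell (-0.70), and Vwf (0.24) and Cdh5 (0.25) rose. The 5 listed epithelial markers summed to 3.01 to 3.48 and 1.79 to 2.11 FPKM, with 1 of 1 tested falling and Krt8, Krt19, Muc2 and Vil1 at 0 in some.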

How the data were processed

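Per the labels' protocols, RNA of 3 WT and 3 Gsdmd-/- samples was sequenced on a BGISEQ-500. The submitters' processing notes name Bowtie2 version 2.2.5 and GRCm38.p6. How gene values were made, and whether strand was used, is not given in the sources used here. All deposited files hold 1 value per gene with no unit. They were read as FPKM because the authors' values sum differently between samples and the step between low values depends on transcript length. The depth estimate from those steps is rough: 55.6% to 59.3% of low values came within 0.15 of a whole fragment count. In 25 cases a symbol turned into a date was replaced through the gene identifier.

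Genes with at least 1 FPKM in at least 3 samples were tested with limma version 3.58.1 (trend and robust) in R version 4.3.3 on log2(FPKM + 1), a scale that understates changes of low genes, and p-values were adjusted over all 10005 genes. Length and GC of GENCODE M21 transcripts, found for 9852 tested genes and 83 of 84 members, entered as splines with 5 degrees of freedom per sample where the trend was removed. Both fits were tested on simulated data. Coding copies were matched with BLAST. The members, gene lists and tests were chosen with earlier results of these data known. Named genes are the 5 largest and 5 smallest changes per subunit, paralogs with their main forms, the stalk genes, Rpsa, 8 members with known further roles, members below the filter, and up to 4 genes per other list by p. Alternatives were other pseudocounts, filters and scalings, the trend removed, a replicate block and leaving out each sample. Values of some single genes of these lists are not reported here.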

Additional observations from a re-analysis of the deposited data

How the results depend on the processing

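The direction of the 35 named members and both subunit counts of risen genes held with pseudocounts of 0.1 and 0.01, without a filter, with median ratio scaling and without limma's trend and robust settings. With TPM, quantile normalization, the trend removed and the trend fitted without members (chosen after seeing the data), the large subunit median was 0.41, 0.34, 0.21 and 0.21 and the small subunit median 0.44, 0.35, 0.16 and 0.14. Quantile normalization left 48 large and 31 small subunit genes risen, without Rpl10 (0.01) and Rpl15 (0.03). One large subunit gene fell (1 gene, Rpl34) under both forms of trend removal. Rpl34 was then at -0.13 and -0.14, and Rplp1 at -0.0040 and -0.0118. Leaving out single samples moved Rps27 from -3.90 (without Gsdmd-/- replicate 1) to 0.0139 (without Gsdmd-/- replicate 3), and it was at 0.70 with its copy added. The difference in the share of summed FPKM, 2.23 percentage points, was 3.31 without the 50 highest other genes. The causes were not tested.

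Samples with the same replicate number had correlations of -0.08, 0.13 and 0.01 in their deviations, so the numbers were not taken as pairs. With the replicate block 49 large and 31 small subunit genes rose, and Rpl36 no longer passed. With the block and the trend removed, 38 large subunit genes rose and 1 fell, 23 small subunit genes rose and 1 fell, the medians were 0.21 and 0.16, Rpl34 was at -0.13 and Rplp1 at -0.0040.

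For the list medians, TPM, quantile normalization, trend removal, trend fitted without members, and the replicate block with the trend removed gave, in that order, 0.57, 0.39, 0.20, 0.20 and 0.20 for ribosomal proteins outside the rule. For elongation and termination factors they gave -0.0868, -0.10, -0.0081, -0.0057 and -0.0081, and a mean of at least 5 FPKM gave 0.23. For initiation factors they gave 0.0108, 0.13, 0.10, 0.10 and 0.10, for other pyrimidine tract mRNAs 0.0460, 0.0883, 0.13, 0.13 and 0.13, and for mTORC1 genes -0.32, -0.20, -0.0240, -0.0226 and -0.0240. TPM gave 0.0112 for biogenesis factors, 0.0494 for RNA polymerase I and -0.27 for chaperones.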
